A study of Rattus norvegicus with 15 samples.

Results

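Among 350 microRNAs (miRNAs) measured in rat liver, 10 were followed here because they were high on a single array, that of carbohydrate-fed liver 12 h after partial hepatectomy. They are miR-125a-3p, miR-125b-3p, miR-188, miR-466b, miR-672, miR-494, miR-30c-1*, miR-874, miR-134 and miR-539, and they were found by name among all probes of the array design. They were chosen by their scaled signal on that array, so those values are a description and were given no test. The list was drawn up as low-level and minor-arm miRNAs. Low level held for 9 of them, but miR-494 lay between 462 and 782 on the other 14 arrays and was not dim. Only the names miR-125a-3p, miR-125b-3p and miR-30c-1* mark a minor arm, and the other names do not give the arm.

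The 15 arrays came from rats fed ethanol chronically (EtOH) or pair-fed a carbohydrate control diet (CHO), and each array held liver RNA pooled from 4 animals. Liver was taken at partial hepatectomy (PHx), the surgical removal of part of the liver that sets off regeneration, and 1, 6, 12 or 24 h later. Before PHx there were 3 EtOH and 4 CHO arrays, and after it 1 array for each diet at each of the 4 times. Arrays of the 1 h and 6 h pools were on slide 1 and those of the 12 h and 24 h pools on slide 2. Each slide held arrays of both diets before PHx, but early against late times after PHx cannot be told apart from slide. The labels used here name no strain, sex or age. No EtOH array from before PHx was analysed here for the animals of the 24 h pool. Per the animal identifiers in the labels, 7 of the 8 pools after PHx have an array before PHx from the same 4 animals, and in each diet the 1 h and 6 h pools share 1 animal. Since every group after PHx is 1 pool, its value has no replicate, and in whole liver fewer cells of a type and less RNA per cell cannot be told apart.

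A miRNA is cut from a hairpin precursor that can release a mature strand from either arm, the 5p and the 3p arm. Usually one arm is loaded into Argonaute and kept, and the other, formerly marked with a star, is degraded. Bases 2 to 8 of the mature strand, the seed, pair with target messenger RNAs. Several of these 10 have a known setting: miR-125a and miR-125b are the vertebrate relatives of lin-4, the first miRNA described, and their abundant product is the 5p arm. MiR-134, miR-494 and miR-539 belong to the imprinted Dlk1-Dio3 cluster, which is expressed from the maternal chromosome and is best known from brain, placenta and embryo. MiR-466b belongs to a repeated rodent cluster in Sfmbt2.

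The mature strands of the miRNAs that stood highest, and of those whose array name settles the strand, are shown here from RefSeq (build GRCr8), written 5′ to 3′ with the seed in capitals.
miR-125a-3p: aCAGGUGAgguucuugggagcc
miR-125b-1-3p: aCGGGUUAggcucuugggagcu
miR-125b-2-3p: aCAAGUCAggcucuugggaccu
miR-30c-1-3p: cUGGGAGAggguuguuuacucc
miR-188-5p: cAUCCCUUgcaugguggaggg
miR-188-3p: cUCCCACAugcaggguuugc
miR-466b-5p: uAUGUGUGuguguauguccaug
miR-466b-3p: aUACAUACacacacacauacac
miR-466b-2-3p: aUAUACAUacacacauacaca
miR-672-5p: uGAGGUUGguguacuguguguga
miR-672-3p: aCACACAGucgccaucuucga
The array name miR-30c-1* corresponds to miR-30c-1-3p, and miR-125b-3p could be either of its RefSeq copies. The names miR-188, miR-466b, miR-672, miR-494, miR-874, miR-134 and miR-539 do not say which arm was measured, so for these both arms are candidates.

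The 19 candidate strands of the 10 miRNAs carry 19 different seeds, so no seed joins them. Their GC content had a median of 54.5% and ranged from 28.6% to 77.3%, against a median of 47.8% over the 693 mature strands listed by RefSeq. Away from the seed, miR-125a-3p and miR-125b-1-3p share 10 bases in a row at positions 12 to 21, shown here in capitals.
miR-125a-3p: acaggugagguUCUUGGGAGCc
miR-125b-1-3p: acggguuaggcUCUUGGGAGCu
No other mature strand in the RefSeq table holds these 10 bases, and 0.0784% of the 238395 pairs of distinct mature strands share a run of 10 or more. The copy miR-125b-2-3p shares 8 of these bases with miR-125a-3p.

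The 10 miRNAs come from several chromosomes. MiR-125a-3p lies at chr1:67350727-67350748 (GRCr8) within the span of Spaca6. The copies of miR-125b-3p lie at chr8:50850090-50850111 and chr11:29732627-29732648, in the long noncoding RNA genes Lnc215 and LOC103693508. MiR-188 lies in Clcn5 and miR-672 in Nexmif, both on chromosome X, and miR-30c-1* lies in Nfyc on chromosome 5. Both miR-466b, in Sfmbt2, and miR-874, in Klhl3, are on chromosome 17. The 3 Dlk1-Dio3 members lie within 20.3 kb, at chr6:134550130-134570380. Exons and the strand of the overlapping genes were not in the table used, so exonic and intronic positions are not given.

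Signals below are scaled signals, that is, the scanner's background-subtracted intensity made comparable between arrays. Signals under the floor of 9.61, the typical lowest signal that was well above background, have no order and were set to it before log2 was taken. A miRNA was taken as detected if the scanner software placed at least 0.5 of the spots of its standing probe on that array well above background. The software's own call per miRNA, made over all its probes, is wider for some members and is given beside them. As many as 131 miRNAs were detected on the CHO 12 h array, against 108 to 130 on the others. Its brightness and background lay within the range of the other arrays, and its replicate spots varied by a median of 7.38%. Its profile correlated less with any other array (highest r across miRNAs 0.978) than those of the others did (0.993 to 0.999). Both this correlation and the 131 detected include the members, which were chosen for being high on this array. A second array stood apart: EtOH before PHx replicate 3 was the dimmest, its spots varied by 36.6%, and values that include it are given without it where leaving it out moved them by over 1.5 times or turned a sign. Liver-cell identity was plain on the CHO 12 h array, where the hepatocyte miRNAs miR-122, miR-192 and miR-194 summed to 41243, against 35965 to 46363 on the others.

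**Figure D1:**
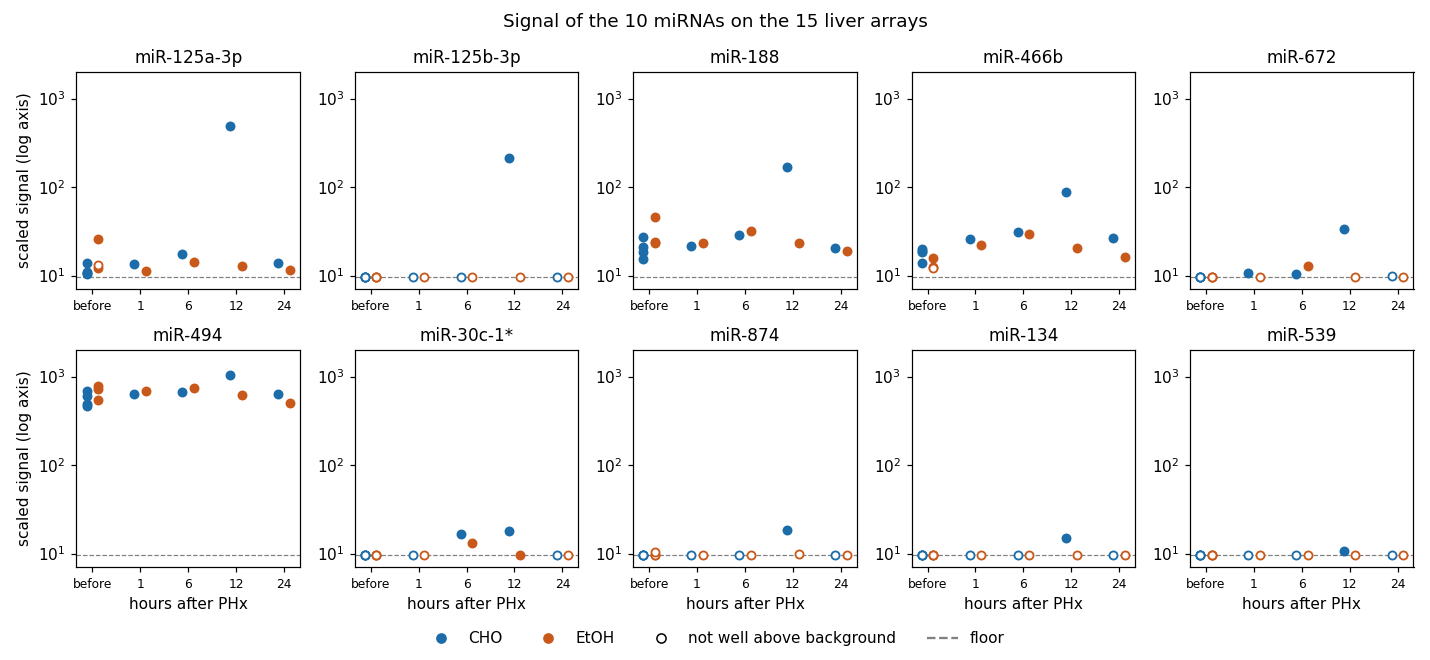
Scaled signal (log axis, values under the floor of 9.61 drawn at it) of each miRNA on each of the 15 arrays, by hours after PHx and diet; each point is 1 array of 4 pooled animals, and open points were not well above background. The CHO 12 h point is the highest in all 10 panels, from 1033 for miR-494 to 10.8 for miR-539.

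All 10 had their highest value on the CHO 12 h array and all 10 were detected there. Over all miRNAs, 5.71% had their highest value on that array, which is 20 of 350, and 37.4% were detected on it. By the share of spots, detection on this array and no other was found for 4 members (miR-125b-3p, miR-874, miR-134 and miR-539) and 1.71% of the 350. Levels at least 2-fold above the CHO mean before PHx were reached by 5 members and 1.71% of the 350, the sixth miRNA being miR-223. Since these values chose the members, nothing is read from that contrast. At least a 2-fold excess over the highest of the other 14 arrays was seen for 5 of 350 miRNAs (1.43%), and all 5 were members: miR-125a-3p, miR-125b-3p, miR-188, miR-466b and miR-672. On the other arrays between 0 and 21 miRNAs had their highest value, and 1 miRNA, miR-290 on EtOH before PHx replicate 3, stood at least 2-fold above the next array. The median of the members' log2 differences between CHO 12 h and CHO before PHx was 1.38, against 0 over all 350.

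**Figure D2:**
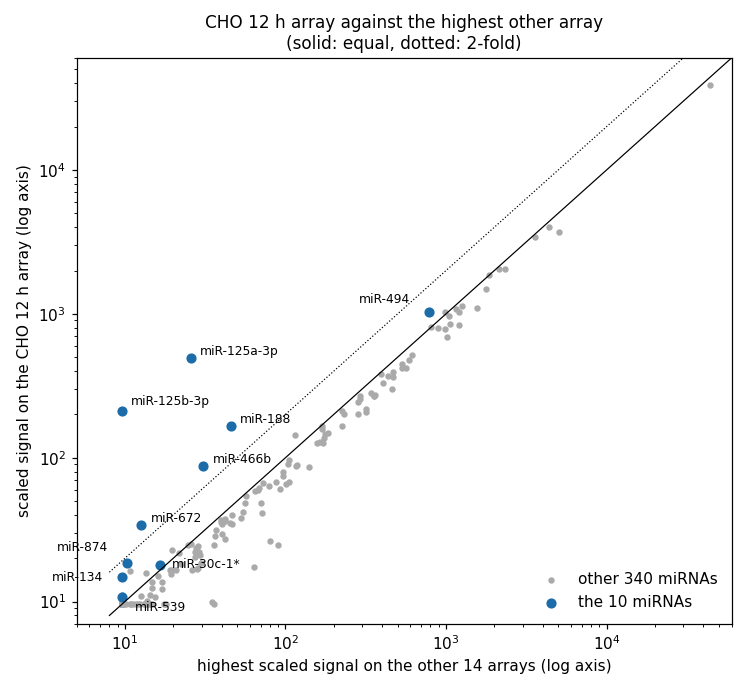
Scaled signal on the CHO 12 h array against the highest scaled signal on the other 14 arrays, for 350 miRNAs, on log axes and floored at 9.61; the solid line marks equal signals and the dotted line a 2-fold excess. Members miR-125a-3p, miR-125b-3p, miR-188, miR-466b and miR-672 lie above the dotted line, and no other miRNA does.

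The 3p arms of miR-125a and miR-125b had the largest excess. MiR-125a-3p was 492 at 12 h in CHO liver and 12.9 at 12 h in EtOH liver. Before PHx it was 10.49, 10.9, 14.01 and 10.6 in the CHO pools and 13.3, 12.2 and 25.8 in the EtOH pools. At 1, 6 and 24 h it was 13.4, 17.5 and 13.8 in CHO and 11.3, 14.2 and 11.6 in EtOH. One array thus stood far above 14 that overlapped between diets and times, and the level was 43.1-fold that of CHO before PHx and 35.1-fold that of the same animals before PHx.

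MiR-125b-3p was detected on the CHO 12 h array alone, at 212; the software's own call added CHO 6 h. The other 14 arrays lay between 1.63 and 7.68, all under the floor, so the CHO 12 h level was at least 23.1-fold above CHO before PHx and at least 22.4-fold above EtOH 12 h. Each such bound sets the CHO 12 h signal against the lowest signal well above background on each array compared, or the dim signal itself where that was higher. The abundant 5p arms of both hairpins did not stand out on that array. MiR-125a-5p was 59.1, against 58.5 ± 4.43 (SD, n = 4) in CHO before PHx. MiR-125b-5p was 789, against 903 ± 54.9 (SD, n = 4), and 591 to 979 on the other 14 arrays.

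Each of the 4 probes for miR-125a-3p showed the excess, but the probes for miR-125b-3p were split. Before scaling, 2 of its 4 probes gave 227 and 110.02 on the CHO 12 h array and at most 7.28 on the other arrays. The other 2 gave -0.0413 and -0.606 there, and at most 0.0317 elsewhere. The probe sequences were not used here, so which bases each probe reads, and whether the 10 shared bases matter for these probes, was not tested.

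MiR-188, encoded on the X chromosome beside miR-500, miR-501, miR-532 and others, was detected on all 15 arrays. It was 166 on the CHO 12 h array. Before PHx it was 18.7, 27.4, 21.0 and 15.4 in CHO and 24.3, 23.6 and 45.6 in EtOH. After PHx it was 21.6, 29.0 and 20.4 in CHO at 1, 6 and 24 h, and 23.2, 32.3, 23.1 and 19.1 in EtOH at 1, 6, 12 and 24 h. The CHO 12 h level was 8.26-fold that of CHO before PHx, and the next highest array was the noisy EtOH before PHx replicate 3. Its neighbours did not follow: of the 5 miRNAs of this cluster on the design, miR-188 alone had its highest value on CHO 12 h. MiR-500 was 40.0 there, against 30.8 ± 3.33 (SD, n = 4) in CHO before PHx and up to 46.1 elsewhere, and miR-532-5p was 14.9, against 14.2 ± 0.624 (SD, n = 4).

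MiR-466b and miR-672 were raised less, on a pattern that also varied across the other arrays. MiR-466b was 87.5 on the CHO 12 h array, 4.99-fold the level of CHO before PHx and 4.29-fold that of EtOH 12 h. Before PHx it was 19.8, 18.8, 18.3 and 13.9 in CHO and 12.5, 15.9 and 12.2 in EtOH. After PHx it was 25.7, 30.8 and 26.4 in CHO at 1, 6 and 24 h, and 22.0, 29.8, 20.4 and 16.3 in EtOH at 1, 6, 12 and 24 h. So 6 of these 7 arrays after PHx exceeded every array before it, and the 24 h EtOH array did not. Its relative miR-466c was detected on no array.

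MiR-672 was 33.98 on the CHO 12 h array, at least 3.70-fold above CHO before PHx. The software's own call detected it on 8 arrays, EtOH before PHx replicate 2, EtOH 12 h and CHO 24 h among them. By the share of spots it was also detected at 1 h in CHO (10.72) and at 6 h in CHO (10.4) and in EtOH (12.7). By that rule it was detected on none of the 7 arrays before PHx, where it was 2.21 to 5.84, nor at 24 h or at 12 h in EtOH.

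The miRNAs of the Dlk1-Dio3 cluster differed widely in level. MiR-494 was 1033 on the CHO 12 h array, 1.87-fold CHO before PHx, which had 495, 679.8, 597 and 462. The EtOH pools before PHx had 782, 542.5 and 715. At 1, 6 and 24 h it was 632, 662 and 631 in CHO, and EtOH livers had 677, 748, 621 and 499.5 at 1, 6, 12 and 24 h. Its excess over the highest other array was 1.32-fold, on a background in which the arrays before and after PHx overlapped.

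MiR-134, a miRNA known for its part in dendrite growth in neurons, and miR-539 were detected on the CHO 12 h array alone. MiR-134 was 14.9 there and at most 5.67 elsewhere, which is at least 1.63-fold above CHO before PHx. MiR-539 was 10.8 there and at most 6.08 elsewhere, at least 1.17-fold above CHO before PHx and just above the floor. The rest of the cluster was not detected. Of 46 listed members on the design, the 43 outside this list were detected on none of the 15 arrays, and none of the 43 had a floored value on CHO 12 h above the other arrays.

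MiR-30c-1*, the minor arm of a miR-30c precursor in Nfyc, was 17.9 on the CHO 12 h array. It was 16.5 in CHO and 13.1 in EtOH at 6 h, and 9.49 in EtOH at 12 h. By the share of spots it was not detected elsewhere (3.54 to 8.61). The software's own call detected it on 8 arrays, CHO before PHx replicate 1 and EtOH before PHx replicate 2 among them. The CHO 12 h value was 1.09-fold the next array, so this member was not separated from CHO 6 h. The main product miR-30c was 328, against 333 ± 13.5 (SD, n = 4) in CHO before PHx. Of the 58 star strands on the design, miR-30c-1* was the 1 whose floored value was highest on CHO 12 h. The star strand miR-125b*, a separate entry on the design, was 8.31 there, against -1.77 to 1.54 on the other arrays. Its values were all under the floor.

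MiR-874, encoded in Klhl3, was 18.5 on the CHO 12 h array. By the share of spots it was detected there alone, but the software's own call detected it on 11 of the 15 arrays. The other arrays ranged from 3.36 to 10.3 with a median of 5.72, the highest being EtOH before PHx replicate 3. The CHO 12 h level was at least 2.02-fold above CHO before PHx and at least 1.89-fold above EtOH 12 h. Of its 4 probes 3 were detected on CHO 12 h.

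The excess was also read in the single spots. For 8 of the 10 miRNAs, every usable spot of the standing probe on the CHO 12 h array was brighter, before scaling, than every such spot on the other 14 arrays. For miR-125a-3p the 5 spots were 506 to 540, against 7.87 to 18.7 on the other arrays, and lay between rows 64 and 191 of the array. The exceptions were miR-30c-1* and miR-539, with 4 of 5 spots each. The spread among spots on CHO 12 h ran from 2.46% for miR-125a-3p to 20.5% for miR-134. Of the 30 probes for the 10 miRNAs, 25 had their highest scaled and floored signal on CHO 12 h (28 in raw signal, some of them under the floor), 24 were detected there, and 6 were detected on no array.

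**Figure D3:**
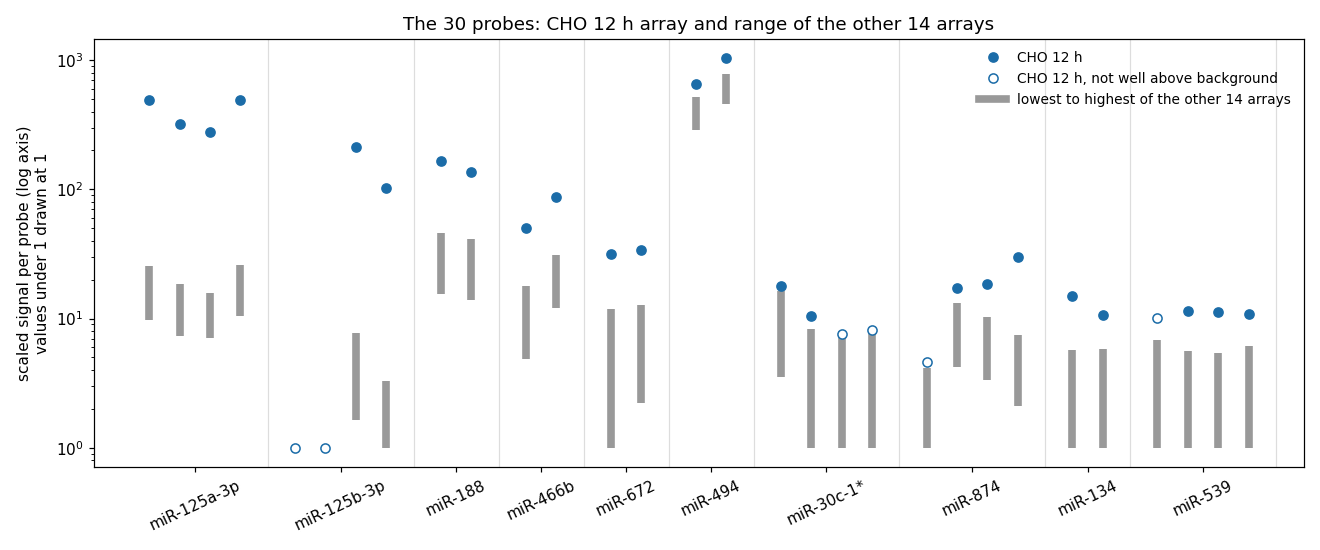
Scaled signal (log axis, values under 1 drawn at 1) of each of the 30 probes on the CHO 12 h array (points, open where not well above background) and the range over the other 14 arrays (grey bars). All 4 probes of miR-125a-3p lie far above their bars, while 2 of the 4 probes of miR-125b-3p sit at the bottom.

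At 24 h in CHO liver miR-125a-3p was 13.8 and miR-188 was 20.4, so the level at 12 h was 35.8-fold and 8.14-fold that at 24 h. The 24 h array came from other animals, so this is a comparison of pools and not a time course within animals. At 6 h in CHO liver miR-125b-3p (7.68), miR-466b (30.8), miR-30c-1* (16.5) and miR-539 (6.08) had their highest values outside CHO 12 h, those of miR-125b-3p and miR-539 being under the floor. EtOH before PHx replicate 3, the noisy array, held the highest values outside CHO 12 h of another 4, miR-125a-3p (25.8), miR-188 (45.6), miR-874 (10.3) and miR-134 (5.67, under the floor). For miR-672 that array was EtOH 6 h, and for miR-494 EtOH before PHx replicate 1.

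The contrasts that the choice of members did not use were fitted with limma on the 14 arrays other than CHO 12 h, over the 134 miRNAs detected on at least 3 arrays. Of the 10 members 6 could be tested: miR-125a-3p, miR-188, miR-466b, miR-672, miR-494 and miR-30c-1*. All 6 also pass that filter without CHO 12 h, but miR-672 and miR-30c-1* pass it only through arrays after PHx on which they were high, the 6 h arrays among them, so counts and medians over the 6 at 6 h are a description. MiR-125b-3p, miR-874, miR-134 and miR-539, detected on 1 array each, had no test. Differences are on the log2 scale, each given with its standard error (SE), and p-values were adjusted over the 134 (Benjamini-Hochberg), with a call under 0.05. The p-values rest on the spread between pools before PHx and on departures from 1 common diet difference over 1, 6 and 24 h. No group after PHx has a spread of its own, and shared animals were not a term in this fit.

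At 6 h after PHx, over both diets, 2 of the 6 tested members rose and none fell, while 5.22% of the 134 miRNAs rose and 0 fell. MiR-466b rose by 0.98 (SE 0.161, adjusted p 0.0035, limma), and both 6 h arrays lay above all 7 arrays before PHx. The call rested on the EtOH 6 h array: without it the difference was 0.77 with an adjusted p of 0.243. It was also not called without scaling (0.87, adjusted p 0.0630), in the authors' values (0.87, adjusted p 0.0584), or with CHO 12 h in the fit (0.98, adjusted p 0.0896). With normexp background correction it shrank to 0.14 (per spot, adjusted p 0.996) and 0.21 (1 background value per array, adjusted p 0.994). Within slide 1, which holds both 6 h arrays, it was 0.88 (adjusted p 0.00792).

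By the share of spots miR-30c-1* was detected on both 6 h arrays and on none of the 7 before PHx, at least a 1.51-fold rise. The software's own call also detected it on CHO before PHx replicate 1 and EtOH before PHx replicate 2. MiR-30c-1* is the second of the 2 members called by limma, but with every value before PHx at the floor its p-value is not given. The rise was not called over the mean of its 4 probes, of which the other 3 were detected on no 6 h array. For miR-672, detected by the share of spots on both 6 h arrays and on none before PHx, the bound was 1.18-fold. The software's own call also detected miR-672 on EtOH before PHx replicate 2. It was not among the limma calls, and its p-value is not given for the same reason. Both 6 h arrays lay above all 7 arrays before PHx for 3 of the 10 members (miR-466b, miR-672 and miR-30c-1*), against 4.57% of the 350 miRNAs. The median difference of the 6 tested members at 6 h was 0.29, against 0.07 over the 134.

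**Figure D4:**
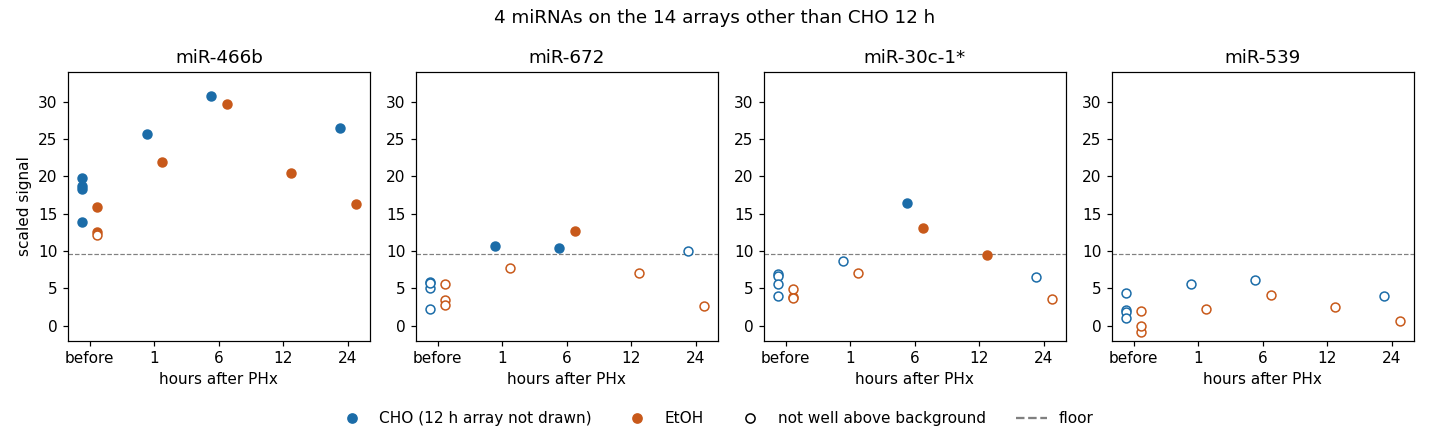
Scaled signal of miR-466b, miR-672, miR-30c-1* and miR-539 on the 14 arrays other than CHO 12 h, by hours after PHx and diet; each point is 1 array, open points were not well above background, and the dashed line is the floor of 9.61. For miR-466b, miR-672 and miR-30c-1* both 6 h points lie above all points before PHx, while miR-539 stays under the floor.

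At 1 h none of the 6 was called, nor was any of the 134 with limma. MiR-30c-1* was under the floor on both 1 h and both 24 h arrays, as before PHx, so it could not be called at either time. At an unadjusted p under 0.05 there were 6 miRNAs, 1 of them a member, miR-466b. It was 0.63 (SE 0.161), with an adjusted p of 0.315, and both 1 h arrays lay above all 7 before PHx, as they did for 0.857% of the 350 miRNAs. At 24 h 11.2% of the 134 were higher and 1.49% lower, and 0 of the 6 members were called, with adjusted p from 0.119 for miR-466b (0.44, SE 0.161) upward; 1 member, miR-466b, had an unadjusted p under 0.05. With slide as a block miR-466b was called at 24 h (0.58, adjusted p 0.0385). In the main fit its 0.44 fell to 0.15 without CHO 24 h and rose to 0.72 without EtOH 24 h, neither called. For 5.14% of the 350 miRNAs both 24 h arrays lay above all arrays before PHx, and for 0 of the 10 members.

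In EtOH liver at 12 h, the same time as the high CHO array, 5.97% of the 134 miRNAs were higher than in EtOH before PHx and 0 were lower. None of the 6 members was among them (limma), 1 had an unadjusted p under 0.05, and their median difference was -0.06, against 0.07 over the 134. MiR-672 and miR-30c-1* were under the floor on the EtOH 12 h array and in EtOH before PHx, so they could not be called. Their differences of 0 enter that median. MiR-466b was 0.60 (SE 0.231, adjusted p 0.269). MiR-125a-3p (-0.32), miR-188 (-0.36) and miR-494 (-0.11) had adjusted p of 0.941 or more. Without EtOH before PHx replicate 3 these differences were 0.02 for miR-125a-3p, -0.05 for miR-188 and -0.07 for miR-494. In scaled signal miR-125a-3p (12.9), miR-188 (23.1), miR-494 (621) and miR-672 (7.07) on the EtOH 12 h array lay within the range of the arrays before PHx or, for miR-672, under the floor. The lone EtOH 12 h array is assumed to vary like the others. Since the CHO 12 h array chose the members, the difference between diets at 12 h was not tested.

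No tested member was called as differing between the diets, either before PHx or over 1, 6 and 24 h after it. Before PHx 2.99% of the 134 miRNAs were higher and 13.4% lower in EtOH, and 0 of the 6 members were called with limma, although 3 had an unadjusted p under 0.05. MiR-672 and miR-30c-1* were under the floor on every array before PHx, so this fit could not have called them. In EtOH liver miR-188 was 31.1 ± 12.5 (SD, n = 3), against 20.6 ± 5.05 (SD, n = 4) in the controls, a log2 difference of 0.56 (SE 0.235, adjusted p 0.138). MiR-125a-3p was 17.1 ± 7.54 (SD, n = 3) and 11.5 ± 1.68 (SD, n = 4), a difference of 0.49 (SE 0.218, adjusted p 0.159). Without EtOH before PHx replicate 3 these differences were 0.25 (adjusted p 0.391) and 0.15 (adjusted p 0.403). Without scaling that of miR-125a-3p was -0.04. With slide as a block miR-125a-3p was called (0.58, adjusted p 0.0277).

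MiR-466b went the other way before PHx, with EtOH livers at 13.5 ± 2.07 (SD, n = 3) and control livers at 17.7 ± 2.61 (SD, n = 4). The difference of -0.38 (SE 0.153) was not called (adjusted p 0.116). It was called without CHO before PHx replicate 4 (-0.50, adjusted p 0.0431), within slide 1 (-0.45, adjusted p 0.0441) and without scaling (-0.76, adjusted p 0.00685), and with normexp background correction its sign turned (0.25 and 0.52). After PHx 1.49% of the 134 were higher and 6.72% lower in EtOH, and 0 of the 6 members were called (0 had an unadjusted p under 0.05). There miR-466b was -0.32 (SE 0.163, adjusted p 0.268), and -0.14 without either 24 h array (adjusted p 0.654).

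Across the 14 arrays other than CHO 12 h, 4 of the members had like profiles. Grouped after their values were seen, miR-466b, miR-672, miR-30c-1* and miR-539 had pairwise Pearson correlations of 0.79 to 0.95 over 6 pairs. Without EtOH before PHx replicate 3 these were 0.77 to 0.94. The other 6 members correlated with each other at 0.22 to 0.87 and with these 4 at -0.29 to 0.36, but without that one array the ranges were -0.24 to 0.78 and 0.03 to 0.73. Without that array every pair among the 4 still lay above every pair between the sets, though narrowly (0.77 against 0.73). The other 6 were then no closer to each other than to the 4 (median r 0.42 and 0.50). The points share arrays, scaling and pools, and many values are under the floor, so these correlations are descriptions.

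Of the 20 miRNAs with their highest floored value on CHO 12 h, 10 were members, which were chosen for being high there. The rest lay outside the list. By excess of floored signal on CHO 12 h over the highest other array, miR-327 (16.4, against 0.874 to 10.72) came first among these, at 1.53-fold. It was followed by miR-223 (143, against 60.6 to 114, 1.25-fold), a miRNA of neutrophils and other myeloid cells, and by miR-342-3p at 1.18-fold. Among the members, on the same floored measure, miR-672 (2.68-fold), miR-874 (1.79-fold) and miR-134 (1.55-fold) lay above all 3. MiR-494 (1.32-fold) lay below miR-327, and miR-539 (1.12-fold) and miR-30c-1* (1.09-fold) lay below all 3. The folds of miR-874, miR-134 and miR-539 depend on the floor, since they were detected on no other array. As bounds of the kind given above they were at least 1.42-fold, 1.15-fold and 1.04-fold. By correlation with the members' pattern over all 15 arrays, the nearest were miR-327 (r = 0.978), and miR-291a-5p and miR-206 (both 0.975), which passed the floor on CHO 12 h alone, at 11.2 and 10.1. MiR-206 was not well above background even there. These correlations are set by the CHO 12 h array that chose the members: a miRNA at the floor on the other 14 arrays has the same r at any height, so they are a description.

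Markers of other cells were read on the same array. Of the leukocyte list, 3 of 4 on the design were detected on CHO 12 h, and the summed level was 236, against 141 to 221 on the other arrays. MiR-223 was the 1 member of that list with its highest value there, while miR-142-3p was 24.6, against 17.7 to 35.8. MiR-223 was not particular to that array: it was 112 on EtOH 12 h and was called higher at 6 h and 24 h over both diets (limma). The part of leukocytes in the members' levels was not tested. The defining miRNAs of skeletal and heart muscle, such as miR-1 and miR-133a, were detected on no array (0 of 6). Their summed level was 21.0 on CHO 12 h, against 2.02 to 17.2, but apart from miR-206 (10.1) it sums signals under the floor, which have no order. Of the neural list 6 of 7 were detected on no array, miR-9 and miR-124 among them, so its summed level (5.22, against -2.12 to 8.91) is not read either. The pancreas miRNAs miR-375, miR-216a and miR-217 were detected on no array.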

How the data were processed

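Liver RNA of 15 pools was hybridised to single-colour Cy3 miRNA arrays. Spot intensity was deposited as scanner output, background-subtracted by Agilent Feature Extraction, per the file headers (version 10.5.1.1; the submitters' processing notes give 10.7.3.1). The authors' deposited table of log2 values served as an alternative; how it was normalized, scaled or centred is unknown here. Column medians ran from 0.106 to 1.10, and all columns had the same highest value, 15.5.

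Flagged spots (2.38%) were left out, and processed signals were averaged by probe. Each array was scaled to its 75th percentile among the 185 probes that every array detected. Signals were floored at 9.61 (3.26 on the log2 scale). Each miRNA was read from its brightest probe on average. Fits used limma 3.58.1 in R 4.3.3 (lmFit, eBayes) on the 14 arrays without CHO 12 h, with terms for each diet before PHx, for 1, 6 and 24 h, for diet after PHx and for EtOH 12 h, leaving 7 residual degrees of freedom; the script was tested on simulated data. The number of arrays limits the precision (median SE 0.11 for diet before PHx and for 1, 6 and 24 h, 0.16 for EtOH 12 h). Alternatives varied scaling, background, floor, filter, probes, slide, pool and single arrays. Normexp used median spot signals, since the files hold no mean signal.

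All 10 members, the named lists, and the non-members nearest by excess or by profile could be named. The members and lists were chosen with earlier results of these data known. The pairing of arrays before and after PHx comes from shared animals; deviations of paired arrays correlated at -0.20 to 0.30 over 6 pools.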

Additional observations from a re-analysis of the deposited data

Results flagged for a closer look

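MiR-125a-3p in CHO liver before PHx had 1 array apart from the other 3. Replicate 3 was 14.01, against 10.49 to 10.9, and its gap made up 0.863 of the group's range on the log2 scale. This is the pool whose animals gave the CHO 12 h array. Of the 10 miRNAs 4 had a spread to examine in this group, and chance marks about 1 group in 20.

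For 3 miRNAs detected in both diets the change after PHx had opposite signs in CHO and EtOH, and the difference was not tested. At 12 h the CHO change minus the EtOH change, in log2, was 5.75 for miR-125a-3p, 3.41 for miR-188 and 1.02 for miR-494, where the CHO value chose the members. MiR-125a-3p had such a difference at 1 h (0.73), 6 h (0.80) and 24 h (0.74), with CHO changes of 0.23, 0.62 and 0.27 and EtOH changes of -0.50, -0.18 and -0.47. MiR-188 had it at 1 h (0.45) and 24 h (0.66), and miR-494 at 24 h (0.62). These changes are set against the mean of all arrays of the diet before PHx, and for EtOH that mean includes the noisy replicate 3, where miR-125a-3p (25.8) and miR-188 (45.6) were high. Without replicate 3, a choice made after seeing the data, 7 of the 9 differences kept opposite signs. The EtOH change of miR-125a-3p turned to 0.16 at 6 h and 0.02 at 12 h, so that both diets then moved the same way, and the CHO minus EtOH difference at 6 h fell to 0.46. At 1 h and 24 h that difference was 0.39 and 0.40 for miR-125a-3p and 0.14 and 0.35 for miR-188. Within the same animals, miR-125a-3p at 6 h was higher after PHx in both diets, by 0.68 in CHO and 0.22 in EtOH.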

How the results depend on the processing

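Of 550 recomputed values 495 kept their direction and side of the threshold or moved within the spread between replicates. Members with their highest value on CHO 12 h fell from 10 to 6 with the floor doubled and to 6 with normexp and 1 background value per array (each time without miR-30c-1*, miR-874, miR-134 and miR-539), and to 2 with normexp per spot (miR-125a-3p and miR-494), where values on CHO 24 h spread by an SD of 0.377 against up to 1.26 elsewhere. They were 8 when the percentile was taken over all probes (without miR-494 and miR-539), 9 with quantile normalization and 9 in the authors' values. Detection does not depend on scaling, background or floor, and fell to 9 over all probes of a miRNA (without miR-30c-1*).

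The members' median on CHO 12 h over CHO before PHx, 1.38, was 1.08 with a percentile over all probes, 1.17 with quantile normalization, 1.47 without scaling, 0.67 with either normexp, 0.86 with the floor doubled, 2.68 with the floor at 1, 2.68 with total gene signal and 2.61 in the authors' values.

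Members called at 6 h were 2, but 0 without scaling, with either normexp and in the authors' values, 1 with the floor doubled or on all 15 arrays, and 1 to 3 when single arrays were left out (1 without EtOH 6 h, 3 without CHO 6 h). For diet before PHx 1 member was called in place of 0 without scaling, with slide as a block and within slide 1, and 0 to 1 when single arrays were left out. At 24 h 1 was called with slide as a block (miR-466b), and at 12 h in EtOH 1 with the floor at 1 (miR-30c-1*). With normexp per spot the sign of miR-466b turned before PHx (0.52), at 1 h (-0.15) and at 12 h (-0.46), and that of miR-672 at 6 h (-0.0318). With 1 background value per array that of miR-466b turned before PHx (0.25), at 1 h (-0.00175), 12 h (-0.18) and 24 h (-0.0271). Without scaling miR-125a-3p before PHx turned (-0.0375). The cause was not tested.

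The calls over all 134 miRNAs also moved with single arrays. Without EtOH before PHx replicate 3 they were 35 in place of 22 for diet before PHx, 21 in place of 11 for diet after PHx, and 13 in place of 7 at 6 h. At 6 h they were 2 without EtOH 6 h and 4 without CHO 6 h, at 24 h 9 in place of 17 without either 24 h array, and for diet after PHx 0 to 21 over all single arrays left out.

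With the pool of animals as a replicate block miR-466b at 6 h was 0.95 (adjusted p 0.00266), and pairing changed no member's call in any contrast. Contrasts that a slide or a left-out array removes have no value. One pool per time and signals near background limit all of this.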
